A study of Mus musculus with 6 samples.

Results

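The transcriptome described here is that of mouse mesenchymal stem cells that had received a control siRNA, read from 3 of the 6 libraries of the series across all 23358 gene rows of the deposited table. The 3 libraries were taken by their labels and were compared only with each other. The other libraries, from cells given an siRNA against Dia2, entered no value. The cells had been isolated from C57BL/6 bone marrow and were used between passages 6 and 12. They were plated at 6000 cells/cm2, left for 24 h to attach, and exposed overnight to a non-targeting siRNA at 50 nM with a lipid carrier. The medium was then changed to αMEM and RNA was taken 24 h later. The profile is therefore one of passaged, transfected cells in culture and not of cells as they lie in the marrow. The labels name neither the sex of the mice nor whether the 3 libraries came from separate cultures, so the spread between them may be technical.

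Mesenchymal stem cells, also known as marrow stromal cells, are adherent cells that can be driven in culture to form bone, fat and cartilage cells. In the marrow, stromal cells secrete the collagen-rich matrix and the factors, such as Cxcl12 and Kitl, that hold blood stem cells in place. Expanded cultures resemble fibroblasts in much of what they express, and they are known for a large secretome of matrix proteins, proteases and growth factors.

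Levels are given as deposited RPKM, which is reads per kilobase of gene length, scaled to the reads of the library, so that genes of different length can be set side by side. A gene is described as detected when its RPKM was at least 1 in each of the 3 libraries. Values in replicates 1, 2 and 3 are given in that order, and means are given ± SD (n = 3 libraries). Counts summed to 110006338, 80390882 and 70538768, and every count was even, so 1 sequenced fragment seems to have added 2. A floor of 6 counts (3 fragments) corresponds to 0.0233, 0.0320 and 0.0353 RPKM for a gene of 2 kb, and levels under it were not distinguishable from 0 at this depth. The ribosomal RNA precursor Rn45s took 6.05%, 6.00% and 11.7% of the counts. The RPKM of the median detected gene was 1.02, 1.03 and 0.939 times its mean over the libraries, so a small shortfall of replicate 3 is common to most genes on this scale. Summed shares leave out Rn45s.

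The label of the cells was checked first against lists of marker genes. Of 16 surface proteins by which such cells are recognised, 11 were detected, and the list had a median of 20.4 RPKM. Over all rows 44.5% were detected and the median was 0.397 RPKM. Itgb1, the integrin beta chain that pairs with most collagen and fibronectin receptor subunits, stood at 297, 286 and 287 RPKM. Cd44, the hyaluronan receptor, stood at 25.02, 23.4 and 22.97 RPKM. Ly6a, which encodes the mouse stem cell antigen Sca-1, stood at 14.7, 15.05 and 11.5 RPKM. The platelet-derived growth factor receptors were both present, Pdgfrb at 59.8 ± 6.15 and Pdgfra at 17 ± 1.14 RPKM. Of these, Ly6a was lowest in replicate 3, and Itgb1 and Cd44 varied little between libraries.

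Some genes often used to define these cells were not detected. Thy1, the gene of the surface glycoprotein CD90, stood at 0.0179, 0.0123 and 0 RPKM, under the floor. Ngfr, which marks primitive human stromal cells, was near it at 0.0228, 0.0125 and 0.00691 RPKM. Nt5e, the gene of the ectoenzyme CD73, stood just below the detection limit at 0.909, 0.924 and 0.986 RPKM, as did Alcam at 0.910, 0.839 and 0.883 RPKM. Eng, the TGF-beta co-receptor CD105, was detected at 4.85, 5.18 and 4.02 RPKM.

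The factors by which marrow stroma serves blood cells were also unevenly present, with 10 of 14 detected and a median of 7.77 RPKM. Csf1, the growth factor of macrophages, was the highest at 190.3, 179.9 and 156 RPKM. Cxcl12, the chemokine that retains blood stem cells, stood at 82.2, 104 and 104 RPKM, lowest in replicate 1. Kitl, the ligand of the stem cell receptor Kit, stood at 13.3, 13.97 and 16.9 RPKM, and the transcription factor Foxc1 at 25.5, 24.9 and 26.6 RPKM. Lepr, the leptin receptor used to mark stromal cells in adult marrow, was not detected, at 0.192, 0.151 and 0.163 RPKM.

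Most genes that define other cell types were at or near 0. Of 21 blood and macrophage markers 3 were detected, none above 10 RPKM, and 9 stayed under 6 counts in all 3 libraries. The pan-blood marker Ptprc (CD45) had counts in replicate 1 alone, at 0.000912 mean RPKM, and Tyrobp, Spi1, Ms4a1, Cd3e and Gata1 had 0 counts. The 3 detected were Cd14 at 5.71 ± 0.448, the receptor gene Kit at 2.40 ± 0.218 and Cd68 at 1.69 ± 0.213 RPKM. In bulk RNA, a few cells of a type and little RNA in each of many cells cannot be told apart, here and in the lists that follow. No endothelial marker of 15 was detected, and Cdh5, Emcn, Tie1, Sox17 and Erg had 0 counts. Of 10 epithelial markers only the keratin gene Krt19 was detected, at 39, 40.7 and 33.8 RPKM, while Epcam, Krt5 and Esrp1 had 0 counts. Of 10 neural and Schwann cell markers the tubulin gene Tubb3 (4.93 ± 0.642 RPKM) and Map2 (1.21 ± 0.0546 RPKM) were detected, and Sox10 and Rbfox3 had 0 counts. The Y-linked genes Eif2s3y, Ddx3y, Uty and Kdm5d were detected in all 3 libraries, with Eif2s3y at 16.7, 15.8 and 18.9 RPKM. Xist, the RNA that coats the inactive X chromosome, was near 0 at 0.00260, 0 and 0.00788 RPKM.

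**Figure D1:**
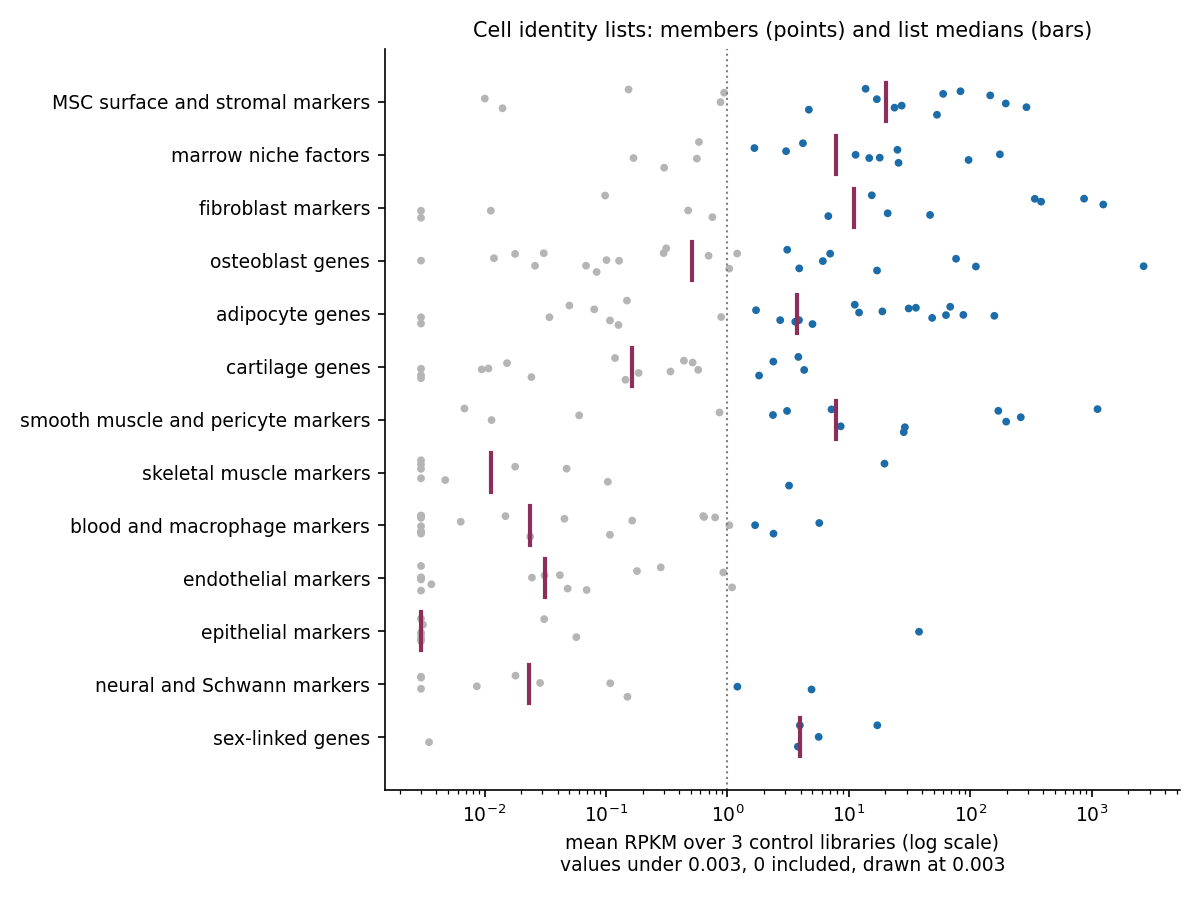
Mean RPKM over the 3 control libraries (log scale) of each member of 13 marker lists, 1 point a gene, blue where RPKM was at least 1 in every library and grey otherwise, with a bar at the list median. The mesenchymal, niche, fibroblast and smooth muscle lists have medians of 7.77 to 20.4 RPKM, and the blood, endothelial, epithelial, neural and skeletal muscle lists have medians under 0.1.

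In each library about as many genes were expressed. An RPKM of at least 1 was reached by 10564, 10601 and 10545 genes, by 10400 of them in all 3, and a further 339 reached it in 1 or 2 libraries. The median of the 10400 detected genes was 10.46 RPKM. By mean RPKM, 5218 genes lay from 1 to under 10, 4834 from 10 to under 100, 491 from 100 to under 1000, and 31 at 1000 or above. A count of 0 in all 3 libraries was listed for 5808 genes. When each library was thinned to 35000000 fragments, 16153, 16114 and 16161 genes were expected to hold at least 1 fragment, so the larger number seen in replicate 1 (16614) went with its depth. The order of genes was close to the same in each pair of libraries, with a Spearman rho of 0.998 for replicates 1 and 2, 0.994 for 1 and 3 and 0.994 for 2 and 3 over the detected genes. These are correlations across genes, which are not independent replicates.

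Messages were concentrated in few genes. The 10 highest genes held 6.66% ± 0.120 of the summed RPKM, the 100 highest 28.1% ± 0.521 and the 1000 highest 62.0% ± 0.469 (SD, n = 3), and 480 genes held 50% of the summed mean RPKM. By counts, which weight long genes more, the same 100 genes held 17.0% ± 0.231. Of the 100 highest genes of each library, 94 were shared by all 3. Protein-coding genes made up 99.1% of the summed mean RPKM, and long noncoding RNA genes, of which 130 were detected, 0.380%. Genes of the mitochondrial chromosome were not listed, so the shares and ranks do not cover them.

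**Figure D2:**
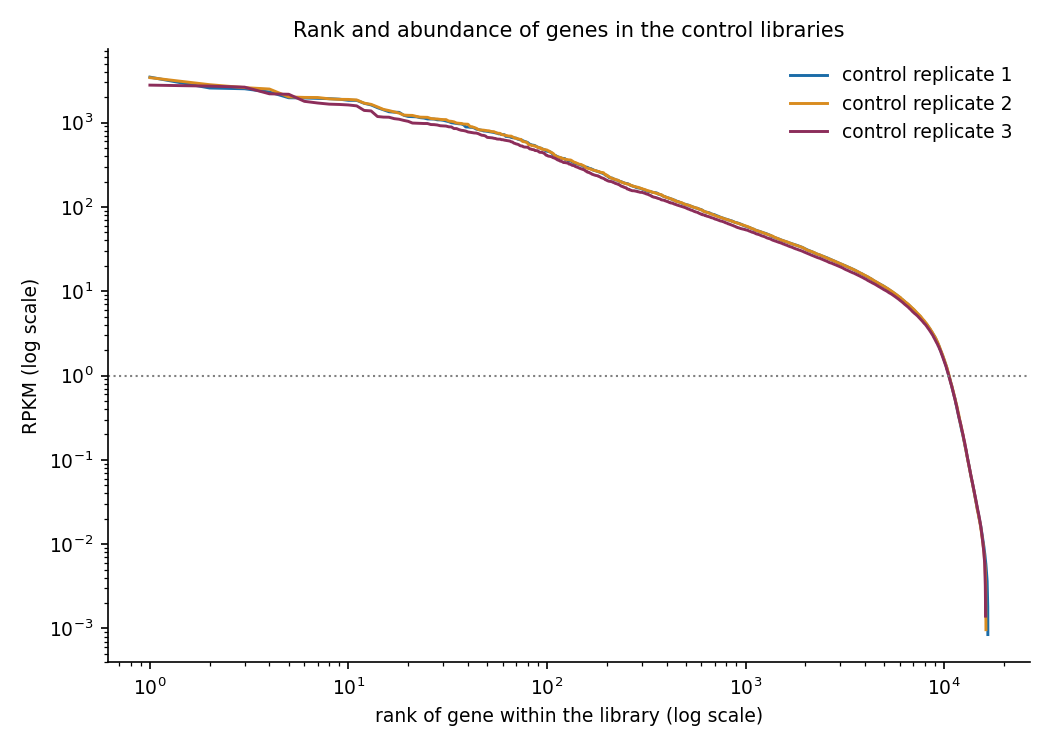
RPKM of each gene (log scale) against its rank within the library (log scale), 1 line for each of the 3 control libraries, Rn45s left out, with a dotted line at an RPKM of 1. The 3 lines lie close together, replicate 3 slightly lower among the highest genes, and cross the dotted line at nearly the same rank.

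Most of the 25 highest genes named by rule encoded parts of the ribosome and translation, iron storage, the secreted matrix, or the actin and filament cytoskeleton. Ftl1, the light chain of the iron store ferritin, ranked first at 3462, 3412 and 2708 RPKM, and Fth1, its heavy chain, stood at 1547 ± 149.5 RPKM. Spp1, the gene of the secreted phosphoprotein osteopontin, ranked second at 2572, 2815 and 2633 RPKM. Its RPKM in replicate 2 was the highest of the 3, and the range was narrow. With annotated exon lengths in place of the deposited ones Spp1 stood above Ftl1, with means of 2312 RPKM for Ftl1 and 2690 RPKM for Spp1. Sparc, a collagen-binding matrix glycoprotein, stood at 1837, 1887 and 1579 RPKM, and Bgn, the proteoglycan biglycan, at 1143, 1228 and 975 RPKM. Both were lowest in replicate 3.

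Among cytoskeletal genes the non-muscle actins Actg1 and Actb stood at 1806 ± 147 and 1101 ± 71.8 RPKM. Acta2, the smooth muscle actin that cultured fibroblasts take up in stress fibres, lay near Actb, at 1182, 1183 and 983 RPKM. Vim, the intermediate filament of mesenchymal cells, stood at 1323, 1295 and 1114 RPKM and Cfl1, the actin-severing protein cofilin, at 1166 ± 91.1 RPKM. The small calcium-binding protein gene S100a6 (2324 ± 167 RPKM) and the galectin gene Lgals1 (1865 ± 215 RPKM) belonged to the same range. All 20 genes of an actin cytoskeleton list exceeded 100 RPKM, with a median of 287 RPKM. Translation was represented by the elongation factor Eef1a1 at 2437 ± 214 RPKM, by Tpt1 at 1801 ± 133 RPKM and by 9 ribosomal protein genes. The chaperone gene Hsp90ab1 completed this group at 1345 ± 142 RPKM. Lars2, the mitochondrial leucyl-tRNA synthetase, was also among the 25, at 1896, 1882 and 2782 RPKM. By RPKM it was, unlike the rest, highest in replicate 3, the library richest in Rn45s. With counts scaled to a common library size (CPM), Spp1 was highest there as well, at 4925, 5342 and 5440 CPM. Whether the levels of Lars2 and Rn45s are linked was not tested.

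Many of the most abundant genes share sequence with other annotated genes, so their levels are uncertain. Copies elsewhere and overlapping genes at the same place both count as shared here and were not told apart. Of the 50-base words in the main transcript of a gene, the median detected gene shared none with another annotated gene. Of the 100 highest genes, however, 42 had fewer than 50% of their words to themselves, against 3.80% of 10069 detected genes. The 77 cytoplasmic ribosomal protein genes, whose products are the proteins of both ribosomal subunits, together held 14.7% ± 0.347 of the summed RPKM (SD, n = 3). They ranged from 4.50, 4.16 and 3.97 RPKM for Rps27 to 1971, 1984 and 1787 RPKM for Rps2, with a median of 604 RPKM, and 53 of them were among the 100 highest genes. Only 1.35% of the words of Rps27 were its own. The glycolytic gene Gapdh, commonly used as a reference, stood at 65.2, 65.6 and 71.6 RPKM with 9.57% of its words its own, and Eno1 at 11.3, 10.98 and 15.7 RPKM with 27.8%. A low share did not always go with a low level, since Ftl1 had 9.36% and Rpl10, at 1071 ± 109.9 RPKM, had 7.87%. Over the ribosomal protein genes the rank correlation between level and share was -0.02. How the counting treated a read that fits more than 1 gene was not given in the sources used here.

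To see what the start sites of abundant genes share, promoters from RefSeq (GRCm38.p6; 300-base windows around the gene start) were matched by symbol to 16211 protein-coding genes. The word TATAAA, the core of the TATA box that binds the TATA-binding protein, was searched on the gene's strand. It was present in 8.72% of all windows and in 3.42% of those of genes with a mean of 1 to under 10 RPKM. The share was 4.04% from 10 to under 100 RPKM and 9.72% (41 of 422) at 100 RPKM or above. It was 8.77% for genes with counts but a mean under 1 RPKM and 19.4% for the 3634 genes with 0 counts. With both strands searched the shares were 13.0% of all windows, and 6.00%, 6.17%, 12.6%, 13.3% and 27.8% in the same 5 classes. At 40 to 16 bases before the start site, where a TATA box lies when it works as one, the word was found in 2.86% of all windows, in 0.954% and 0.972% of the 2 middle classes, and in 3.08% of the highest class. The shares there were higher still at low levels, 3.54% for genes with counts but under 1 RPKM and 6.14% for those with 0 counts. Median G+C was 44.7% in windows of genes with 0 counts and 61.3%, 62.0% and 61.3% in the 3 expressed classes, so the highest class had the base composition of the other expressed genes and a share of TATAAA nearer to that of all windows.

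To let start sites be compared, 4 abundant matched genes with the word at that position were taken as examples. They are not a ranking of all such genes, because the choice did not cover every chromosome. For contrast, the 2 highest matrix genes, which lack the word in this stretch, were added. Each sequence runs 5′ to 3′ on the gene's strand, from 60 bases before the start site to the 20 bases from it on, with TATAAA in capitals. In Vim (chr2:13574251-13574330, plus strand) and Anxa1 (chr19:20390652-20390731, minus strand) it begins 32 bases before the start site. In Ppia (chr11:6415807-6415886, plus strand) it begins 29 and in S100a4 (chr3:90603710-90603789, plus strand) 31 bases before it. Spp1 (chr5:104435051-104435130, plus strand) and Sparc (chr11:55420061-55420140, minus strand) have no match in this stretch, which says only that these letters are not there.
Vim: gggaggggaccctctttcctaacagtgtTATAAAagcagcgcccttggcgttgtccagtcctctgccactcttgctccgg
Anxa1: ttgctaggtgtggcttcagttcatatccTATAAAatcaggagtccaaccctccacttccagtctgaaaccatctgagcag
Ppia: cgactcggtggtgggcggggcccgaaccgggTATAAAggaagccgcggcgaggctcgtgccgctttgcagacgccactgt
S100a4: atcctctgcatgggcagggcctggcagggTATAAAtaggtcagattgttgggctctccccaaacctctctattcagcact
Spp1: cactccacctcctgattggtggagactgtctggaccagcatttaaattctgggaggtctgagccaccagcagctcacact
Sparc: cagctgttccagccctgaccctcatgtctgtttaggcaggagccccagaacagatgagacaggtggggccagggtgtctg
The products are unlike in kind. Anxa1 encodes a phospholipid-binding annexin, Ppia the prolyl isomerase cyclophilin A, and S100a4 a calcium-binding protein used as a fibroblast marker. The mean levels of the 6 genes were 1244 (Vim), 528 (Anxa1), 431 (Ppia), 339.7 (S100a4), 2673 (Spp1) and 1768 (Sparc) RPKM. S100a4 has 43.7% of its words to itself.

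Genes of the 3 lineages open to these cells were present to different degrees. Of 22 osteoblast genes 8 were detected, with a list median of 0.507 RPKM. Runx2, the transcription factor that commits cells to bone, stood at 5.88, 6.29 and 6.15 RPKM. Sp7, which acts after Runx2, was near the floor at 0.0407, 0 and 0.0515 RPKM. Alpl, the alkaline phosphatase of mineralising cells, lay at the detection limit with 1.09, 1.14 and 0.879 RPKM. The late bone matrix genes Bglap (0.0994, 0.0684 and 0.0377 RPKM) and Ibsp (0.0317, 0.0218 and 0 RPKM) were near 0, and Sost, an osteocyte gene, had 0 counts. Bglap and Bglap2 are near-identical copies, with 25.3% and 11.8% of their words their own. The 4 members at 10 RPKM or above were Spp1, described above, Atf4, a general amino acid stress factor also used in bone, at 111 ± 9.32 RPKM, the mesenchymal cadherin gene Cdh11 at 76.3 ± 3.34 RPKM, and Smpd3, a sphingomyelinase needed for bone mineralisation, at 17.1 ± 1.97 RPKM.

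Of 24 adipocyte genes 15 were detected, with a median of 3.75 RPKM. The regulators stood well above the limit, Pparg, the nuclear receptor that drives fat cell formation, at 37.2, 36.2 and 33.4 RPKM and Cebpa at 49.7, 50.7 and 45.1 RPKM. Lpl, the lipase that frees fatty acids from lipoproteins, was the highest of the list at 149, 161 and 163 RPKM. The fatty acid carrier Fabp4 stood at 68.3, 69.5 and 67.1 RPKM, and the desaturase Scd1 at 63.1 ± 3.49 RPKM. In all, 10 members of the list had a mean of at least 10 RPKM. Some of the other members were low or had no counts. Adiponectin (Adipoq) was detected at 1.71, 1.75 and 1.70 RPKM, the lipid droplet coat gene Plin1 stood at 0.0809, 0.123 and 0.0369 RPKM and Slc2a4, the insulin-responsive glucose transporter, at 0.0549, 0.0227 and 0.0250 RPKM. The hormone genes Lep and Retn had 0 counts.

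Of 18 cartilage genes 4 were detected, none above 10 RPKM, with a median of 0.165 RPKM. Sox9, the regulator of cartilage formation, stood at 3.43, 4.27 and 3.81 RPKM, and its target Col2a1, the cartilage collagen, at 2.44, 2.66 and 2.06 RPKM. Acan, the gene of the main cartilage proteoglycan, had 0.00422, 0 and 0 RPKM, under the floor, and Col9a1 had 0 counts.

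Smooth muscle and pericyte genes were more evenly present, with 10 of 14 detected and a median of 7.88 RPKM. Besides Acta2 these included the actin-binding genes Cald1 (260.4 ± 3.03 RPKM) and Tagln (170.1 ± 21.2 RPKM), the enteric actin Actg2 (212, 209.9 and 169.8 RPKM) and Cnn1 (28.98, 30.1 and 25.8 RPKM). Myh11, the heavy chain of mature smooth muscle, was near 0 at 0.0771, 0.0643 and 0.0390 RPKM, as were the pericyte channel genes Kcnj8 and Abcc9, at mean RPKM of 0.00684 and 0.0114. Skeletal muscle regulators were missing, with 0 counts for Myod1, Myf5, Myog and Pax7, although the filament gene Des stood at 19.8, 21.8 and 17.3 RPKM.

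Of 14 fibroblast markers 8 were detected. Fibronectin (Fn1) stood at 864, 956 and 775 RPKM, and the prolyl hydroxylase subunit P4hb at 383 ± 30.7 RPKM. The mesenchymal transcription factor Prrx1 was at 46.6 ± 2.76 RPKM. Dcn, the proteoglycan decorin that is abundant in most connective tissue fibroblasts, was under the detection limit at 0.610, 0.788 and 0.858 RPKM, and Lum and Tcf21 were under the floor or at 0.

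The 189 genes of 8 lists of secreted and matrix-processing proteins held 5.98% ± 0.114 of the summed RPKM (SD, n = 3) and 9.39% ± 0.279 of the counts. Of these genes 126 were detected. The lists include a collagen chaperone (Serpinh1) and a membrane-bound enzyme (Mmp14), so not every product is released from the cell. The collagens were led by the chains of type I collagen, the main fibre of bone and skin. Col1a2 stood at 1077, 1154 and 937 RPKM and Col1a1 at 879.6, 958 and 704 RPKM, both lowest in replicate 3. Of 23 collagen genes 17 were detected, with a median of 45.4 RPKM, and 10 exceeded 100 RPKM, among them the type III and V chains Col3a1 (255 ± 18.5 RPKM) and Col5a2 (345 ± 30.9 RPKM), the basement membrane chain Col4a1 (253 ± 28.5 RPKM) and the type VI chain Col6a1 (233 ± 28.99 RPKM). Col6a2 differed in order from the type I chains, at 176, 209 and 241 RPKM, highest in replicate 3. The tissue-restricted basement membrane chains Col4a3, Col4a4 and Col4a6 were all under 0.1 RPKM in every library.

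Every one of 18 genes that process or crosslink collagen was detected, with a median of 48.6 RPKM. Lox, the copper enzyme that crosslinks collagen and elastin, stood at 787, 816 and 849 RPKM. Serpinh1, the collagen chaperone Hsp47, stood at 599, 594 and 513 RPKM, and Pcolce, which speeds removal of the procollagen tail, at 337, 361 and 278 RPKM. The lowest of the list was Pcolce2 at 5.07 ± 0.337 RPKM.

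Of 31 matrix glycoproteins 23 were detected, with a median of 34.0 RPKM. After Spp1, Sparc and Fn1 came the thrombospondins Thbs2 (736, 724 and 636 RPKM) and Thbs1 (587, 544 and 487 RPKM) and the CCN protein gene Ccn2 (419.6, 378 and 336 RPKM). Thbs1 and Ccn2 were highest in replicate 1 and lowest in replicate 3. Elastin (Eln) and vitronectin (Vtn) had 0 counts, although the elastic fibre genes Efemp2 (148 ± 16.1 RPKM), Emilin1 (109.7 ± 14.6 RPKM) and Fbn1 (15.2 ± 0.730 RPKM) were detected. Of 12 secreted proteoglycans only Bgn, Ogn (63.6, 69.9 and 89.6 RPKM), Hspg2 (71.2, 73.1 and 56.4 RPKM) and Vcan (56.2, 57.7 and 56.8 RPKM) were detected. Ogn was highest and Hspg2 lowest in replicate 3.

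Proteases and their inhibitors were detected for 21 of 26 genes, with a median of 25.1 RPKM. Timp1, an inhibitor of matrix metalloproteinases, was the highest at 303, 284 and 239 RPKM. Mmp14, the membrane-bound collagenase, stood at 167, 179 and 151 RPKM and Mmp2, which it activates, at 30.3, 34.5 and 27.5 RPKM. The inflammation-linked Mmp3, Mmp9 and Mmp10 were all under 0.1 RPKM.

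Of 31 growth factors 23 were detected, with a median of 11.5 RPKM and none at 100 RPKM. Fgf7, a factor made by mesenchyme for epithelial cells, led at 70, 62.9 and 71.6 RPKM. Vegfa, the main driver of vessel growth, stood at 52.2, 51.5 and 51.9 RPKM, with little spread. Hgf stood at 30.4, 34.9 and 35.5 RPKM, Inhba, the activin A subunit, at 41.2, 39.98 and 37.6 RPKM, and Angptl2 at 57.2 ± 6.38 RPKM. The 3 TGF-beta genes were all detected, Tgfb3 at 20.7 ± 0.810, Tgfb1 at 13.4 ± 1.95 and Tgfb2 at 11.5 ± 0.474 RPKM. The bone-forming factor gene Bmp2 was near 0 at 0.0493, 0.00848 and 0 RPKM, while Bmp4 stood at 3.08, 3.39 and 2.69 RPKM.

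Proteins that bind or block growth factors were present in 11 of 23 cases, with a median of 0.994 RPKM. Fstl1 (328, 352 and 333 RPKM) and Igfbp7 (219.8, 229.9 and 203 RPKM) exceeded 100 RPKM. The insulin-like growth factor binding proteins were unequal, since Igfbp4 stood at 34.7 ± 4.12 RPKM and Igfbp3 and Igfbp5 at mean RPKM of 0.00503 and 0.0160. The Wnt antagonists Sfrp1 (51.04 ± 2.55 RPKM) and Sfrp2 (14.9 ± 0.814 RPKM) were detected, and Dkk1, Dkk2 and Wif1 were all under 0.1 RPKM. The BMP antagonist Grem1 stood at 0.539, 0.664 and 0.546 RPKM and Nog at 0.00677 mean RPKM.

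Of 25 cytokines and chemokines 9 were detected, with a median of 0.604 RPKM. Mif was the highest at 605, 565 and 463 RPKM, but only 23.6% of its words were its own. Besides Csf1 and Cxcl12, the monocyte chemokines Ccl7 (52.1, 47.3 and 48.02 RPKM) and Ccl2 (14.3, 11.8 and 11.9 RPKM) were detected. Il6 stood at 0.342, 0.373 and 0.390 RPKM, and Il1b, Csf2, Cxcl2 and Ccl20 had 0 counts.

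**Figure D3:**
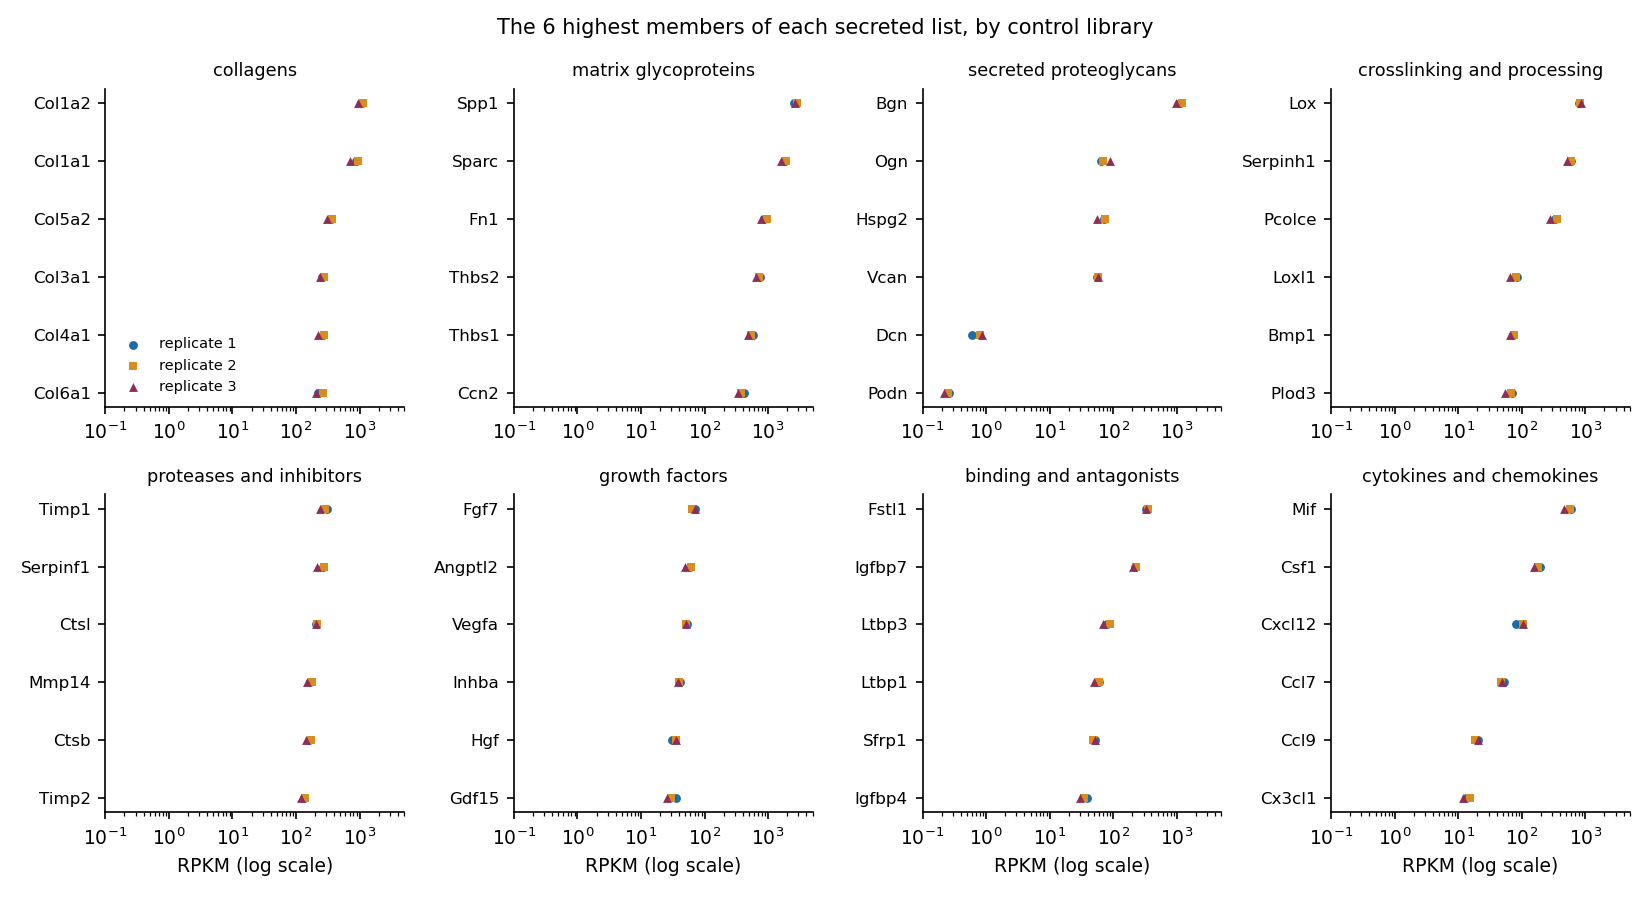
RPKM (log scale) of the 6 highest members of each of the 8 secreted lists, with 1 marker for each of the 3 control libraries. The libraries overlap closely for nearly all genes, and the growth factors and cytokines lie lower than the collagens and matrix glycoproteins, with Mif, Csf1, Fstl1 and Igfbp7 among the higher ones.

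The cells carried the messages of cycling cells together with those of cell cycle inhibitors. All 18 proliferation genes were detected, with a median of 46.6 RPKM. Rrm2, the ribonucleotide reductase subunit made in S phase, stood at 175, 148 and 149 RPKM, Pcna, the replication clamp, at 164, 154 and 149 RPKM and Mki67 at 30.7, 30.9 and 27.9 RPKM. All 13 genes of a senescence and p53 list were also detected, with a median of 27.2 RPKM. Cdkn1a, a kinase inhibitor induced by p53, stood at 112, 112 and 102 RPKM and Cdkn2a, the Ink4a/Arf inhibitor locus, at 26.3, 28.9 and 26.5 RPKM. The p53 gene Trp53 stood at 61.1, 59.9 and 50.8 RPKM.

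Of 16 glycolysis genes 15 were detected, with a median of 60.5 RPKM. The pyruvate kinase gene Pkm stood at 838, 818 and 639 RPKM, Ldha, the lactate dehydrogenase of glycolytic tissue, at 495, 475 and 396 RPKM and Aldoa at 482, 481 and 379 RPKM. Gapdh and Eno1 were lower than their neighbours in the pathway, and both are among the genes with few words of their own. Of 18 immediate early genes 15 were detected, with a median of 15 RPKM. Myc stood at 27.01, 24.8 and 22.5 and Egr1 at 17.8, 22.3 and 18.97 RPKM, whereas Fos (0.992, 1.33 and 0.911 RPKM) and Fosb (0.353, 0.503 and 0.430 RPKM) were at or under the detection limit.

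The Hox genes, which record the position of a tissue along the body and limb axes, differed by cluster. Of 39 genes 15 were detected, all but 1 of them in the HoxA and HoxC clusters. The highest were Hoxc10 at 24.4, 25.1 and 19.7, Hoxa11 at 23.7, 23.1 and 20.98 and Hoxa10 at 22.5, 22.3 and 21.02 RPKM, and Hoxa13, the last gene of its cluster, stood at 6.29, 6.35 and 5.90 RPKM. Every HoxB gene listed was under 0.1 RPKM, 7 of them at 0 counts. Of the HoxD genes Hoxd8 alone was detected, at 1.20, 1.20 and 1.44 RPKM, and Hoxd1, Hoxd12 and Hoxd13 had 0 counts.

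Of 28 transcription factors of mesenchyme and limb 18 were detected, with a median of 6.34 RPKM. Besides Prrx1 the highest were Snai2 (29.2, 30.8 and 31.2 RPKM), a repressor of epithelial genes, and Tbx15 (22.4, 22.98 and 21.5 RPKM). Pitx1, which specifies the hind limb, stood at 9.52, 8.71 and 6.99 RPKM. Tbx4, which acts with Pitx1 in the hind limb bud, had 0 counts, as did Lmx1b, Meox2 and Wt1. Tbx5, its forelimb counterpart, stood at 0.0226 mean RPKM.

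The spread between the libraries was small for most genes. It was measured as the coefficient of variation (CV, the SD over the 3 libraries as a percent of the mean) of CPM, the counts brought to a common library size with TMM factors, over 11570 genes with a mean of at least 1 CPM. The median CV was 6.27%, the 5th and 95th percentiles were 1.57% and 17.2%, and 78.0% of the genes had a CV under 10%. The biological coefficient of variation estimated by edgeR was 0.0719 from halved counts. The median CV was 9.79% for genes from 1 to under 10 CPM and 5.73%, 5.19% and 5.18% in the bins from 10, 100 and 1000 CPM. The CV expected from counting error at the mean fragment count of each gene had medians of 7.53%, 2.58%, 1.16% and 0.374%. It is a calculated value and not a CV taken over 3 libraries, so the 2 compare only roughly. Above 10 CPM most of the spread lay beyond counting error.

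Replicate 3 stood apart from the others. The median absolute log2 ratio was 0.06 between replicates 1 and 2, 0.13 between 1 and 3 and 0.13 between 2 and 3. Replicate 3 was the library farthest from the mean for 56.6% of the genes, against 21.6% for replicate 1 and 21.8% for replicate 2. Without it the median CV was 3.13%. Its deviation moved with base composition. The Spearman rho between the deviation of a library and transcript G+C, across 11168 genes, was 0.466, 0.589 and -0.720 in replicates 1, 2 and 3. The deviations are from the mean of the same 3 libraries, so a trend in 1 of them forces an opposite one on the sum of the others. Taken directly between libraries, the rho of the log2 ratio against G+C was -0.66 for replicate 3 over 1, -0.712 for 3 over 2 and 0.113 for 2 over 1. With the genes split into 5 equal groups by G+C, the median log2 deviation of replicate 3 was 0.13 in the lowest group and -0.11 in the highest. When a running median over genes ordered by G+C was taken out of each library, the median CV of the same genes went from 6.21% to 4.15%, and replicate 3 was farthest for 40.4%. The cause of the shift was not tested.

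**Figure D4:**
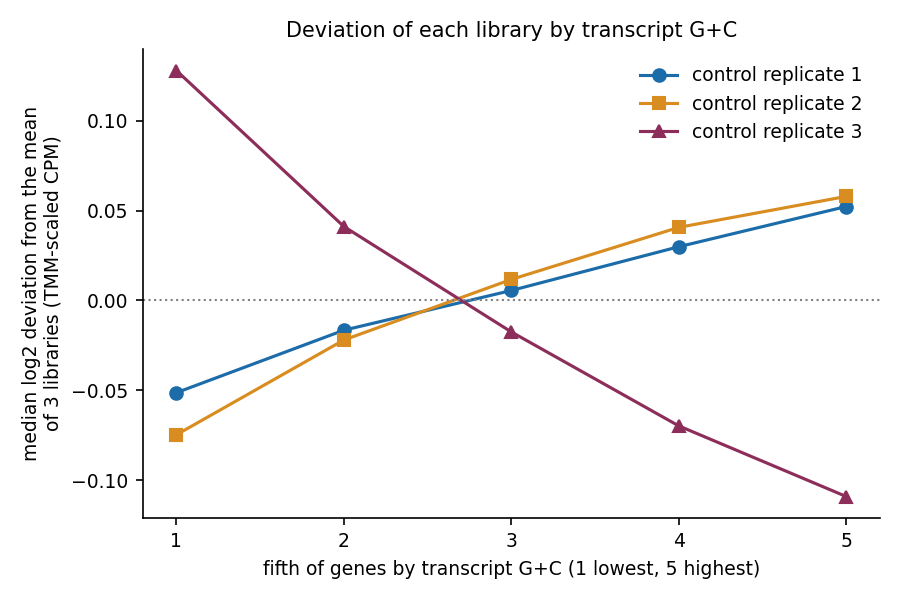
Median log2 deviation of each of the 3 control libraries from their mean (TMM-scaled CPM) in 5 equal groups of genes ordered by transcript G+C. Replicate 3 goes from 0.13 in the lowest group to -0.11 in the highest, and replicates 1 and 2 run the other way, as the common mean requires of their sum.

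A few genes differed between libraries far more than the rest. Among genes with a mean of at least 10 CPM, 3 had a CV over 50%. Prickle1, a planar cell polarity gene (chr15:93499114-93595891 in the table, whose positions match GRCm38), stood at 18.5, 17.4 and 108 CPM (CV 109%). Replicate 3 was 5.86-fold above the next library, and replicates 1 and 2 were close. Tmem158, a membrane protein gene induced by Ras (chr9:123259057-123260789), stood at 662, 23.8 and 1037 CPM (CV 89.2%). Replicate 2 was 27.8-fold below the next library, on 1948 counts against 73964 and 70688. Egln1, the oxygen-sensing prolyl hydroxylase that marks HIF for destruction (chr8:124908587-124949254), stood at 102, 253 and 361 CPM (CV 54.6%), lowest in replicate 1. These genes have all their 50-base words to themselves, and after the G+C adjustment their CV was 111%, 93.3% and 59.0%.

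The next by CV among all rows was the ribosomal RNA precursor Rn45s, at 59584, 58889 and 121052 CPM. Hars, the histidyl-tRNA synthetase, followed at 98.2, 94.7 and 189.6 CPM and Malat1, a noncoding RNA of nuclear speckles, at 606, 548 and 1008 CPM. Prl2c3, a prolactin family gene with 21.4% of its words its own, stood at 10.2, 7.11 and 13.2 CPM, and Marcks, an actin-binding substrate of protein kinase C, at 171, 313 and 236 CPM. The other 4 of the 12 highest CVs belonged to the microRNA row Mir5109, to Tmem38b, to Lars2, the mitochondrial leucyl-tRNA synthetase, and to the predicted gene Gm17066, at 28.4% to 30.2%. Marcks was highest in replicate 2 and the other 11 genes in replicate 3. At the other end Zswim6 (17.5, 17.5 and 17.5 CPM), the dehydrogenase genes Aldh9a1 (57.4, 57.4 and 57.5 CPM) and Hsd17b10 (51.4, 51.3 and 51.3 CPM), the Arp2/3 subunit gene Arpc2 (359, 358 and 358 CPM), Uaca and Scaf8 had CVs under 0.2%. The CV expected from counting error has a median of 2.58% from 10 to under 100 CPM and 1.16% from 100 to under 1000 CPM. CVs so far under it, picked as the lowest of many genes, do not show that these genes are steadier than others.

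Interferon response genes varied together. Of 20 genes 12 were detected, with a median of 1.96 RPKM, and over the 15 with at least 1 CPM the median CV was 18.7%, against 6.27% for all genes. CV depends on level, and by level the median was 38.4% for the 7 of them from 1 to under 10 CPM, against 9.79% for all genes there, and 11.4% for the 8 of at least 10 CPM, against 5.60%. Of these 15 genes 14 were highest in replicate 1, which was the highest library for 29.7% of all genes. Isg15, a ubiquitin-like modifier, stood at 11.1, 5.50 and 6.60 CPM, Usp18, which removes it, at 7.68, 3.59 and 3.23 CPM and Ifit1, a sensor of viral RNA ends, at 7.22, 3.66 and 3.90 CPM. Each was 1.68 to 2.14 times as high in replicate 1 as in the next library, and replicates 2 and 3 lay close together. Bst2, the tethering protein of enveloped viruses, followed with 24.7, 17.9 and 15.4 CPM. Ifit2 was the exception, at 21.5, 22 and 23.3 CPM. The interferon gene Ifnb1 was under the floor at 0.0403, 0.0554 and 0 RPKM, and Mx1 had 0 counts. The difference between single libraries has no replicate check, and its cause was not tested.

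**Figure D5:**
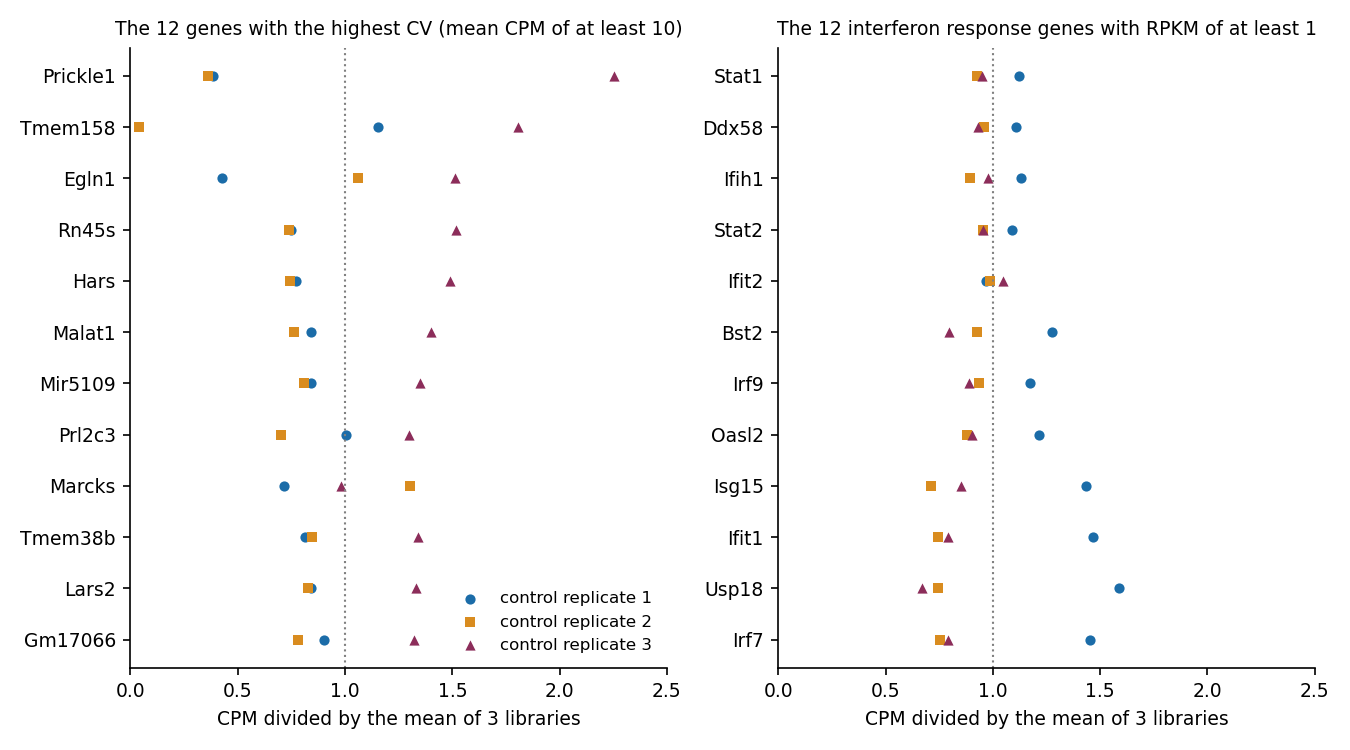
TMM-scaled CPM in each of the 3 control libraries divided by their mean, for the 12 genes of any type with the highest CV (left) and the 12 detected interferon response genes (right). On the left 11 of the 12 genes are highest in replicate 3, with Tmem158 near 0 in replicate 2, and on the right 11 of the 12 genes are highest in replicate 1.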

How the data were processed

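RNA sequencing of 3 control siRNA libraries was read from 1 deposited table of 23358 gene rows. Per the file headers, the authors deposited a gene count, an RPKM value and a coding length for each gene. The submitters' processing notes list HTSeq, bcl2fastq and TopHat2 2.0.6. They also list hg19 and GRCh37, both human, whereas the table holds mouse symbols, and 99.3% of 23051 matched rows overlap the same gene in GRCm38.p6. Annotation, strandedness and multi-mapping were not given in the sources used here. Deposited RPKM equals the count over the length over 1 total per library, of which listed genes hold 83.0% to 85.8%. Only 37.8% of the lengths are multiples of 3, so they are not coding sequence alone, and annotated exon lengths (GENCODE M21) are longer by a median of 1.44 times. Older symbols were replaced for 2289 rows.

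The members and lists (29 lists, 536 genes, all found in the table) were chosen with earlier results of these data known. The genes named are the 25 protein-coding genes of highest mean RPKM with a length of at least 300 bases and no predicted or clone name, up to 6 of the highest members of each list with those at 0 counts, the 12 highest and 6 lowest CVs over all rows at a mean of at least 10 CPM, and other list members that describe their list. Of the 6 genes with a CV over 50%, 3 lie under that minimum. Nothing was tested between groups, and every value is a description of 1 group. TMM factors (edgeR 4.0.16, R 4.3.3) scaled the counts to CPM, and log2 deviations used a pseudocount of 0.1 CPM. The edgeR estimate of the biological coefficient of variation was tested on simulated counts of known dispersion. Halved counts of each pair of libraries differed beyond sampling noise (chi-square per degree of freedom 6.70, 85.2 and 77.3), so none was entered again as another. Transcript words of 50 bases came from GENCODE M21 and promoters from RefSeq. Protein lengths, planned beside them, were not analysed here. Floors cover counting error only, and ± values are the SD over the 3 libraries. The alternatives tried were other RPKM and CPM minimums, counts in place of RPKM, another gene length, DESeq2 1.42.0, upper-quartile or no scaling factors, Rn45s left in or out, and each library left out. The G+C adjustment (running median over 500 genes) and the omission of Rn45s with Lars2 were chosen after seeing the data.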

Additional observations from a re-analysis of the deposited data

How the results depend on the processing

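Detected genes numbered 7301 at a minimum of 5 RPKM and 13467 at 10 counts, and every alternative stayed within 1.5 times the main count of 10400. The share of the 100 highest genes was 30.4% with Rn45s kept in and 17.0% by counts, against 28.1%, and 27.9% to 28.3% with a library left out. The share of the secreted lists was 5.78% with Rn45s and 9.39% by counts, against 5.98%, and 5.92% to 6.02% with a library left out. The median CV, 6.27%, was 9.30% with no filter beyond 1 count, 4.15% after the G+C adjustment, and 3.13% to 6.37% with a library left out, the lowest without replicate 3. Other scaling factors gave 6.27% to 6.99%. Annotated exon lengths lowered the medians of all 29 lists, 13 of them by over 1.5 times, and the mean RPKM of 36 of 42 named genes, 17 moving by over 1.5 times. Rpl12 went from 1297 to 230.0 RPKM and Fth1 from 1547 to 386 RPKM, so the order among the highest genes depends on the length used. Without replicate 3 the mean of Prickle1 was 3.82 and not 9.63 RPKM, and that of Tmem158 171 and not 274 RPKM. Without replicate 1 the median of the blood list was 0.0135 and not 0.0238 RPKM and that of the epithelial list 0 and not 0.00267 RPKM, all near the floor. No paired analysis was possible because the results come from 1 group and no test. Depth limits statements on genes under 6 counts, and the number of libraries limits the precision of every CV.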

Other observations

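Noncoding RNAs formed a small part of the profile and fell into a few known kinds. Above all those named below stood 1110038B12Rik, a long noncoding RNA row at 165.7 ± 8.14 RPKM. Several of the highest were hosts of small nucleolar RNAs, transcripts whose introns release guides for ribosomal RNA modification. Among them Snhg1 stood at 82.1, 74.2 and 77.3 RPKM in replicates 1, 2 and 3, Snhg6 at 66.8, 61.5 and 64.4, Zfas1 at 49.7, 49.8 and 45.1 and Gas5 at 31.5, 34.5 and 30.5 RPKM. Norad, a cytoplasmic RNA that binds Pumilio proteins, stood at 43.4 ± 0.959 RPKM (SD, n = 3). Hoxa11os, transcribed opposite Hoxa11, stood at 18.7 ± 0.928 RPKM, close to Hoxa11 itself at 22.6 ± 1.45 RPKM. With the strand setting not known, reads of these 2 overlapping genes cannot be told apart. Malat1, which is retained in nuclear speckles, stood at 75.1, 68.5 and 116 RPKM (CV of TMM-scaled CPM 34.8%), and Neat1, the scaffold of paraspeckles, at 13.6, 16.1 and 19.5 RPKM (CV 22.5%). Both were highest in replicate 3, which is the library richest in Rn45s and also the one that stands apart by transcript G+C (rho -0.720 across genes). Snhg1, Snhg6, Zfas1 and Gas5 had CVs of 1.13% to 6.72%. These genes were chosen after their values were seen, and the part of Rn45s or of base composition in the levels was not tested.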
